A study of Mus musculus with 6 samples.

Results

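Fast-food feeding was compared with chow after 2 months in mouse liver, with 1 array on each side and all measured genes as members. The pair makes up 2 of the 6 arrays of the series, and 13988 of 18193 genes with a probe set were measured on them, meaning that their signal lay above a floor of 221.4 on at least 1 of the 6 arrays. All mice were male C57BL6/J, an inbred laboratory strain, aged 6 to 8 weeks when feeding began, and the RNA of 3 to 4 livers was pooled for every array. Transcripts were read as fluorescence signals of probe sets, groups of short probes for 1 transcript each, on Affymetrix Mouse Genome 430 2.0 arrays. The chow group ate ordinary rodent chow without restriction. The fast-food group ate a diet with 21% fat by weight, which gave 42% of its calories, 0.2% cholesterol and 34% sucrose by weight, and drank water with 18.9 g/L glucose and 23.1 g/L fructose. Neither group of this pair received a drug, and the labels name no injection for them. Chow and fast-food arrays from a separate 5-month study were used as background and as a second, separately fed pair. There the fast-food mice were injected with the vehicle, phosphate-buffered saline, in the last 5 weeks, whereas no injection is named for the chow mice. The remaining arrays, from mice that also received the ERBB kinase inhibitor canertinib at 80 mg/kg, enter no comparison here.

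With 1 array per group there was no replicate, so differences are given as sizes without an error or a test. A 2-fold difference, 1 unit on the log2 scale, was the size used for counting. Some counts of list members are also given by any amount. The share of all measured genes higher or lower by any amount was not counted. Over all measured genes the log2 difference with diet at 2 months had a median of 0 and 25th and 75th percentiles of -0.23 and 0.22. The difference between the chow arrays of the 5-month and the 2-month study, which differ in age and study but not in diet, gave the background for size. Both differences subtract the same 2-month chow array, so a low or high value on that array moves both in the same direction.

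Across the 6 arrays between 84.3% and 86.6% of measured genes lay above the floor, with 86.6% and 85.4% on the pair compared. For actin, whose 3′ minus 5′ log2 signal is a sign of RNA integrity, the value was 0.94 on chow and 0.85 on fast food, and that of Gapdh was -0.18 and -0.30. The 18 spiked control probe sets had a mean log2 signal 0.31 higher on the fast-food array and 0.30 higher on the 5-month chow array than on the 2-month chow array, and the part of this in the differences was not tested.

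The liver takes up dietary fat and sugar, stores surplus as triglyceride in lipid droplets and secretes it in lipoproteins. When cells hold much cholesterol, the membrane-bound transcription factor SREBP2 stays in the endoplasmic reticulum and genes of sterol synthesis are transcribed less, whereas SREBP1c, encoded by Srebf1, and ChREBP, encoded by Mlxipl, drive fatty acid synthesis under insulin and sugar. Kupffer cells are the resident macrophages of the liver, and stellate cells store retinoids and make collagen in injury. Many mouse liver genes differ between the sexes under the pulsatile growth hormone secretion of males.

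In the fast-food liver 277 genes, 1.98% of those measured, were higher by 2-fold or more than on chow, and 217 genes, 1.55%, were lower by as much. Either way the count was 494 genes or 3.53%, beside 364 genes or 2.60% between the chow arrays, of which 179 (1.28%) were higher and 185 (1.32%) lower at 5 months. The number with diet was thus above that of the chow pair, and the gap was wider in proportion for larger differences. At 4-fold or more there were 28 higher and 19 lower genes with diet against 9 and 4 between the chow arrays, and at 8-fold or more there were 5 and 2 against 1 and 0. Of the 277 higher genes, 93 were at or below the floor on the chow array, and of the 217 lower genes, 77 were at or below it on the fast-food array, so that their fold change is a lower bound. The shares of 1.98% higher and 1.55% lower are the background for every 2-fold count of list members below.

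The fast-food array was at least 2-fold above both chow arrays for 143 genes (1.02%) and at least 2-fold below both for 94 genes (0.672%). Conversely, 46 of the higher genes were also at least 2-fold higher on the 5-month than on the 2-month chow array, and 38 of the lower genes were at least 2-fold lower there. The second pair of diets, fed for 5 months, shares no array with this one. There 381 genes (2.72%) lay 2-fold or more above chow and 256 (1.83%) as far below it. Of these, 105 were among the higher genes at 2 months, which is 37.9% of the 2-month list and 27.6% of the 5-month list, and 40 were among the lower genes, 18.4% and 15.6%. Opposite 2-fold differences at the 2 times were found for 3 of the higher and 2 of the lower genes.

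How often a difference recurred followed signal strength. Among genes above the floor on at least 1 array of the pair and with a mean signal below 500, 5.25% were at least 2-fold different, against 3.86% between the chow arrays, and 20.3% of those called were called in the same direction at 5 months. Between 500 and 2000 the shares were 2.77% and 2.22%, and 32.7% recurred. Above 2000, with 49 genes up and 22 down, the shares were 3.44% and 1.02%, and 54.9% recurred. Recurrence also differed with the number of probe sets. Among lower genes it was 13.2% of the 144 with a single measured probe set, 18.6% of the 59 with several of which 1 was 2-fold lower, and 71.4% of the 14 with at least 2 that were. For higher genes these shares were 37.4% of 182, 34.7% of 75 and 55% of 20.

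**Figure D1:**
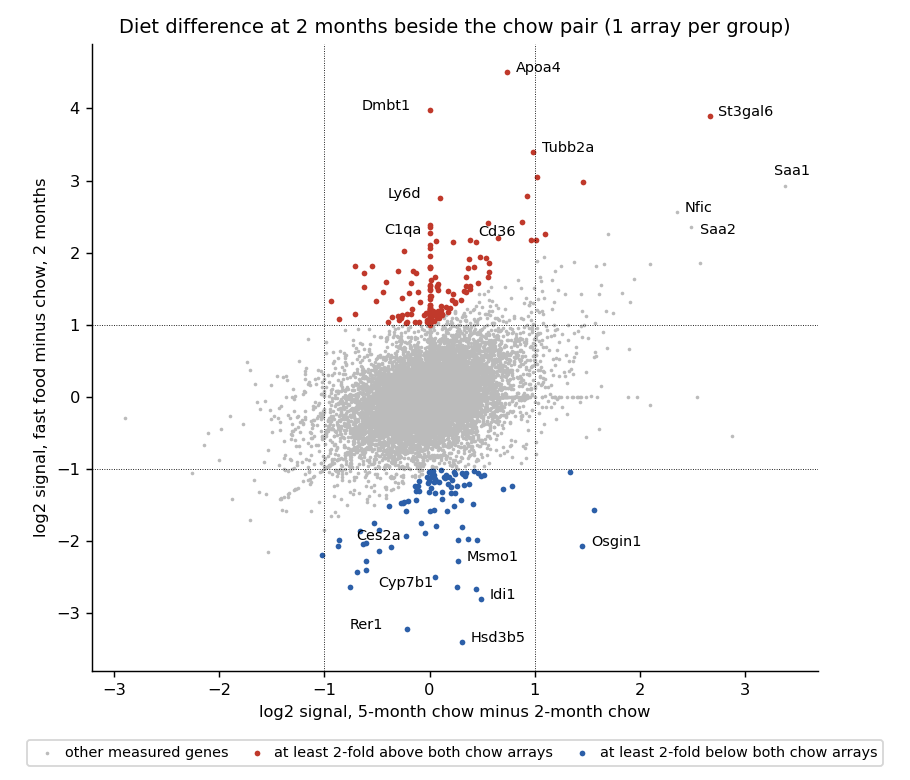
Each point is 1 measured gene, with the log2 difference between 5-month and 2-month chow on the x axis and that between fast food and chow at 2 months on the y axis; dotted lines mark 2-fold. Red marks the 143 genes at least 2-fold above both chow arrays and blue the 94 at least 2-fold below both; Apoa4 lies highest at 4.50, whereas Saa1 and Saa2 lie far to the right and are grey, and both axes subtract the same array.

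The largest difference among genes above the floor on both arrays was that of Apoa4, an apolipoprotein of triglyceride-rich lipoproteins. Its signal was 1454 on the 2-month chow array and 2429 on the 5-month chow array, and 32842 and 36178 on the fast-food arrays of 2 and 5 months. Both fast-food arrays lay far above both chow arrays, and at 2 months the gene was 22.6-fold higher. Of the 15 genes furthest above chow among those above the floor on both arrays, 12 lay at least 2-fold above both chow arrays, 10 were at least 2-fold higher at 5 months too, and 5 showed a 2-fold difference in the same direction between the chow arrays. The 15 genes furthest below chow all lay at least 2-fold below both chow arrays, 12 were at least 2-fold lower at 5 months, and none was 2-fold lower between the chow arrays.

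Some of the largest differences were in genes outside lipid metabolism. Tubb2a, a beta-tubulin, had signals of 727 on chow and 7659 on fast food at 2 months and of 1440 and 8652 at 5 months, a 10.5-fold difference at 2 months. It was the 1 of 8 measured tubulins that differed at least 2-fold, and the median of the list was 0.06. Ly6d, a membrane-anchored protein of the Ly6 family, went from 268 on chow to 1816 on fast food, 6.77-fold, beside 288 and 3782 at 5 months. The uncharacterised transcript 2010003K11Rik was 4.42-fold higher, with 602 on chow and 2658 on fast food, beside 703 and 4354. For these 3 genes the fast-food arrays of both studies lay above both chow arrays.

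Other large differences did not recur. St3gal6, which encodes a sialyltransferase, was 14.9-fold higher at 2 months with signals of 651 and 9706, but its signals at 5 months were 4133 on chow and 238 on fast food. Its 3 measured probe sets ranged from -0.13 to 3.90 on the log2 scale, and 1 of them was 2-fold higher. Tsc22d1, a leucine-zipper protein, was 3.82-fold higher, with all 4 of its probe sets at least 2-fold higher, but the chow arrays differed by 1.08 on the log2 scale and the 5-month difference was 0.34. Rer1, a retention factor of the endoplasmic reticulum and Golgi, was 9.29-fold lower on 1 of 2 probe sets, with 2227 on chow and 240 on fast food, and its log2 difference at 5 months was -0.52. The other probe set of Rer1 had a 2-month log2 difference of 0.79. Nup62, a nuclear pore protein, was 3.49-fold lower on 1 of 5 probe sets. Sez6, known from neurons, was 6.23-fold lower at 2 months and had a log2 difference of 0.01 at 5 months. In contrast, Kcnq1, a potassium channel gene, Col12a1, a collagen gene, and Wdfy1, an endosomal adaptor, were lower at both times, with log2 differences of -2.03, -2.02 and -2.27 at 2 months and bounds of -1.41, -1.49 and -1.72 at 5 months, where the fast-food array was below the floor. Their fast-food signals of 224, 232 and 230 at 2 months lay just above the floor, and Wdfy1 was 2-fold lower on 1 of 3 probe sets.

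Genes at the floor on 1 array add bounds. Dmbt1, a secreted scavenger receptor of mucosal epithelia, was at least 15.7-fold higher, its fast-food signal being 3484, while the chow arrays and the 5-month fast-food array were below the floor. Lcn2, the siderophore-binding lipocalin of the acute phase, was at least 7.87-fold higher at 2 months, with 1743 on fast food, and reached 4481 at 5 months. Spata5, an ATPase gene, and Nfic, a transcription factor gene, were at least 8.31-fold and 5.94-fold higher, but Nfic, Spata5 and Lcn2 also differed between the chow arrays, by 2.35, 1.02 and 1.46 on the log2 scale. On the lower side Phf6, Stk32b and C920021L13Rik were at least 5.37-fold, 5.27-fold and 4.55-fold lower, and none of them was 2-fold lower at 5 months. The other measured probe set of Stk32b had a log2 difference of 0.61, and that of C920021L13Rik 0.83. C920021L13Rik also differed by -1.02 between the chow arrays. Smpd2, a sphingomyelinase gene, was at least 4.45-fold lower at 2 months, differed by -1.54 on the log2 scale between the chow arrays and by 1.65 with diet at 5 months.

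**Figure D2:**
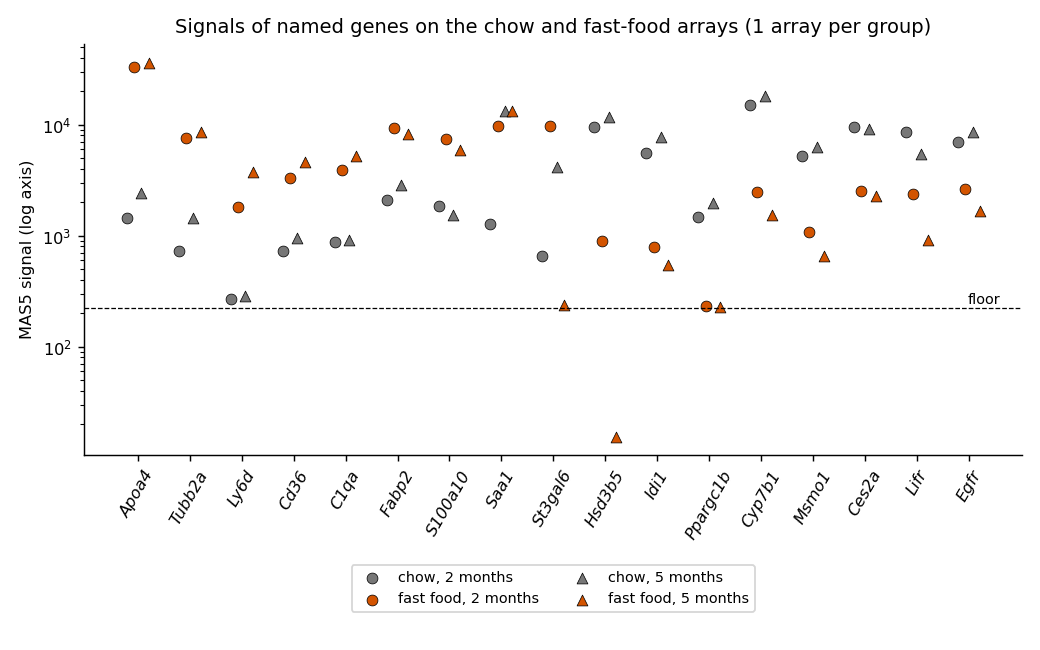
MAS5 signal on a log axis for 17 of the genes named in the text, with circles for the 2-month and triangles for the 5-month arrays, grey for chow and orange for fast food; each symbol is 1 array and the dashed line is the floor of 221.4. For Apoa4, Cd36, C1qa, Idi1 and Cyp7b1 the colours separate at both times, for Saa1 only the 2-month chow array is low, and for St3gal6 the order of the colours turns between the times.

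In cholesterol synthesis the lower signals on the fast-food array extended along most of the pathway. Of 22 measured members, 20 were lower by any amount, 6 were at least 2-fold lower, all 6 of them at least 2-fold below both chow arrays, and none was at least 2-fold higher. The median log2 difference was -0.76, beside 0.20 between the chow arrays, -1.17 at 5 months and 0 over all measured genes at 2 months. Idi1, which isomerises isopentenyl diphosphate for the isoprenoid chain, had signals of 5508 on chow and 788 on fast food at 2 months and of 7736 and 547 at 5 months. It was 6.99-fold lower, and both of its probe sets were at least 2-fold lower. Msmo1, a sterol methyl oxidase, had 5245 and 1081, and Fdft1, squalene synthase, 3769 and 1505. Cyp51, the lanosterol demethylase, had 995 and 425, and Sqle, squalene epoxidase, 2971 and 1290. The sterol dehydrogenase gene Nsdhl, outside the naming rule and given as the remaining 2-fold member, had 4376 and 2111. Averaged over all their probe sets, Fdft1 and Cyp51 had log2 differences of -0.73 and -0.84.

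The other steps differed by less than 2-fold at 2 months. Hmgcs1, which forms hydroxymethylglutaryl-CoA at the entry of the pathway, had 7451 on chow and 4571 on fast food, a log2 difference of -0.71, but the chow arrays differed by 0.91. Fdps, which makes farnesyl diphosphate, had -0.96, and Dhcr7, a late reductase, -0.71. Lss, the lanosterol cyclase, had -0.34 and Ebp, a sterol isomerase, -0.28. Tm7sf2, another sterol reductase gene, was the member with a difference above 0, at 0.10, and Mvk was at the floor on both arrays. Among the regulators, Srebf2 had 905 and 512, a difference of -0.82, its escort protein gene Scap -0.80 and the retention factor gene Insig1 -0.44. The lower signals thus spanned early, middle and late enzymes, and Idi1 and Msmo1 stood out in size. These single members are given for their place in the pathway, not by the naming rule.

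**Figure D3:**
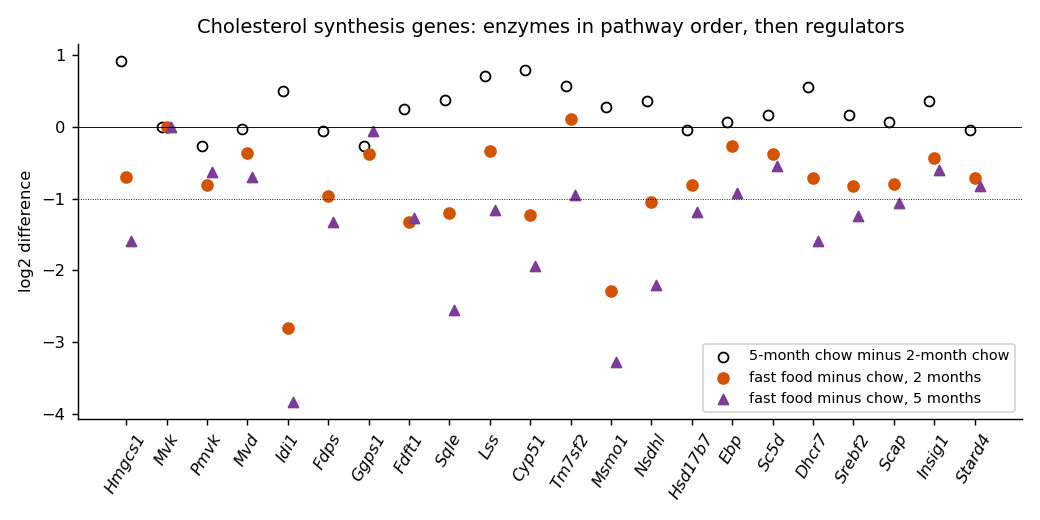
Log2 differences of the 22 measured cholesterol genes, 18 enzymes in pathway order and then 4 regulatory and transport genes, with open circles for 5-month over 2-month chow, orange circles for fast food over chow at 2 months and triangles for the same at 5 months; each value compares 1 array with 1 array. Orange circles lie below 0 except for Tm7sf2 at 0.10 and Mvk at the floor, and Idi1 at -2.81 and Msmo1 at -2.28 lie lowest.

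The promoters of sterol synthesis genes are shown because these genes were lower together and are a textbook target of SREBP2, which binds sterol regulatory elements beside CCAAT boxes. The 250 bases before the start of 4 of them, from RefSeq on GRCm38.p6, are printed 5′ to 3′ on the strand of the gene, with matches to TCACNCCAC or CCAAT on either strand in capitals. Hmgcs1 lies at chr13:119690101-119690350 (+), Idi1 at chr13:8885356-8885605 (+), Cyp51 at chr5:4104698-4104947 (-) and Msmo1 at chr8:64733579-64733828 (-).
Hmgcs1: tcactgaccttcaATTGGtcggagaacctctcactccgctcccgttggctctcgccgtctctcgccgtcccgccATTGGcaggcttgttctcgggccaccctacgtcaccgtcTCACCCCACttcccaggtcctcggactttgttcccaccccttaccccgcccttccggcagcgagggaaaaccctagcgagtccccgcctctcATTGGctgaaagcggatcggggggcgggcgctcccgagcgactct
Idi1: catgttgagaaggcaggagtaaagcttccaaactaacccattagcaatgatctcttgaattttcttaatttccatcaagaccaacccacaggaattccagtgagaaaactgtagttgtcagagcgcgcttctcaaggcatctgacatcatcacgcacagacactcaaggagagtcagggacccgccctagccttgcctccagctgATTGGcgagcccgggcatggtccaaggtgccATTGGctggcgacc
Cyp51: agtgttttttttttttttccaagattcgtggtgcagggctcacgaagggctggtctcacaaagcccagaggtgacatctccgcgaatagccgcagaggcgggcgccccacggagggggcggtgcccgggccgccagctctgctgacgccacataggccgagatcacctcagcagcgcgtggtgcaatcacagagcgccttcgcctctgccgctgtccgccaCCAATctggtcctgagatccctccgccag
Msmo1: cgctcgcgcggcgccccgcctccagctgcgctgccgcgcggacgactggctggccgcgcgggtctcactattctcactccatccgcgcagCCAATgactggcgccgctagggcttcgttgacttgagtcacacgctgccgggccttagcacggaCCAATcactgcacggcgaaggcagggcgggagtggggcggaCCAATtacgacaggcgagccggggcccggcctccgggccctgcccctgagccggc
The letters TCACNCCAC, a form of the sterol regulatory element, occurred once in Hmgcs1, 137 to 129 bases before the start, and in none of the other 3. They were present in 331 of 27025 genes of the promoter table (1.22%), in 155 of the 11215 measured genes with a promoter (1.38%) and in 1 of 18 measured cholesterol genes with one. CCAAT, read as ATTGG on the other strand, occurred in all 4, 3 times in Hmgcs1, at 45 to 41 and 14 to 10 bases before the start in Idi1, at 29 to 25 in Cyp51 and 3 times in Msmo1. It was found in 37.5% of all genes of the table, in 39.4% of the measured genes and in 17 of the 18 cholesterol genes (94.4%). Of the 4 cholesterol genes with a promoter that were at least 2-fold lower, 4 had it and 0 had the sterol regulatory element form. Hmgcs1, the 1 cholesterol gene with that form, was lower by less than 2-fold, with a log2 difference of -0.71. A match describes letters in a window and is not a binding site.

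In sterol export and storage 2 of 12 measured members were at least 2-fold higher, beside 1.98% of all measured genes, and none was at least 2-fold lower. By any amount 11 were higher and 1, the sterol transporter gene Npc1 at -0.48, was lower, and the median was 0.49 beside 0.03 between the chow arrays and 0.67 at 5 months. Abcg5, a subunit of the transporter that moves sterols into bile, had signals of 3011 on chow and 7473 on fast food, 2.48-fold. Its partner Abcg8 had a log2 difference of 0.64. Osbpl3, an oxysterol-binding protein family member, was 2.24-fold higher with 321 and 720, and the receptor gene Nr1h3, which encodes LXRalpha and senses oxysterols, differed by 0.22. Both chow arrays lay below both fast-food arrays for Abcg5 and Osbpl3, although Osbpl3 had a log2 difference of 0.53 when all its probe sets, those at the floor included, were averaged.

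In bile acid synthesis and transport the median was -0.17, and 2 of 23 members were at least 2-fold lower. Cyp7b1, the oxysterol hydroxylase of the acidic bile acid pathway, had 15143 on chow and 2451 on fast food at 2 months and 18197 and 1529 at 5 months, which is 6.18-fold lower at 2 months, with both probe sets at least 2-fold lower. Slco1a4, an organic anion transporter, was 2.49-fold lower with 2158 and 866. Cyp7b1 is also a male-biased gene and counts in that list as well.

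Among lipid droplet genes 6 of 19 measured members were at least 2-fold higher and none as far lower, with a median of 0.56 beside 0.22 between the chow arrays. Over all measured genes 1.98% were that much higher and 1.55% that much lower. Of the 6, 3 were at least 2-fold above both chow arrays. Plin2, the main droplet coat protein of hepatocytes, had 13542 on chow and 33658 on fast food, 2.49-fold, beside 18820 and 26557 at 5 months. Plin4, a perilipin abundant in adipocytes, was 3.36-fold higher with 677 and 2272. Cidea and Cidec, which promote fusion of droplets, were at the floor on the 2-month chow array and reached 1531 and 861 on fast food, at least 6.91-fold and 3.89-fold above chow. G0s2, an inhibitor of lipolysis, and Pnpla3 had log2 differences of 1.19 and 1.11 and are named as the remaining 2-fold members. The lipase gene Pnpla2 had -0.21 and Lipe -0.05, so the 2-fold members were droplet coat, fusion and lipolysis-inhibitor genes together with Pnpla3. The 1 measured gene of the adipocyte marker list had 928 on chow and 901 on fast food.

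Fatty acid uptake and binding genes had a median of 0.25, with 3 of 16 at least 2-fold higher and 1 lower. Cd36, a scavenger receptor and fatty acid carrier, had 726 on chow and 3279 on fast food, beside 947 and 4626 at 5 months. It was 4.52-fold higher, and all 3 of its probe sets were at least 2-fold higher. The binding proteins went in different directions. Fabp2, the intestinal form, was 4.44-fold higher with 2102 and 9327, and Fabp4, the adipocyte and macrophage form, 3.09-fold higher on 1 of 3 probe sets. Fabp5, the epidermal form, was 3.90-fold lower with 4967 and 1275, and both of its probe sets were at least 2-fold lower. Fabp1, the abundant liver form, had a log2 difference of 0.27. Pparg, which encodes the transcription factor of adipocyte lipid storage, was at the floor on chow and had a signal of 362 on fast food, at least 1.63-fold higher, while Ppara differed by 0.09.

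In lipogenesis 7 of 21 members were at least 2-fold above chow and none as far below, and the median was 0.64 beside 0.21 between the chow arrays and 0.20 at 5 months. Of the 7, 5 were at least 2-fold above both chow arrays. Fasn, fatty acid synthase, went from 4641 to 13090 at 2 months, a 2.82-fold difference, beside 6061 and 12367 in the 5-month pair. Srebf1 itself had 4931 and 10707, 2.17-fold, and the elongase gene Elovl5 had 15112 and 43904, 2.91-fold, with both probe sets at least 2-fold higher. Thrsp, a lipogenic nuclear protein, and the elongase gene Elovl6 had log2 differences of 1.16 and 1.07. Acacb, the acetyl-CoA carboxylase isoform at mitochondria, was 4.53-fold higher at 2 months with 450 and 2037, but the chow arrays differed by 1.01 and the 5-month difference was 0.20. Scd2 was at least 3.09-fold higher on 1 of 3 probe sets, Scd1 had 0.41, and the sugar-responsive regulator Mlxipl had -0.12.

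Fructose entry was represented by Khk, which phosphorylates fructose, with 6845 on chow and 13750 on fast food, and Tkfc, which phosphorylates glyceraldehyde, with 3555 and 7278. They were 2.01-fold and 2.05-fold higher and made up the 2 of 13 measured genes of sugar entry and glycolysis that were at least 2-fold higher. Both lay close to the cutoff and fell below 2-fold under quantile and loess scaling, and Khk also against the mean of both chow arrays. For Khk the chow arrays differed by 0.45 on the log2 scale and the 5-month difference was 0.30. Tkfc was at least 2-fold above both chow arrays and had a 5-month difference of 0.97. In triglyceride and phospholipid synthesis 3 of 20 were at least 2-fold higher with a median of 0.23. Of the 3, 1 was at least 2-fold above both chow arrays. Mogat1, a monoacylglycerol acyltransferase, was 2.20-fold higher with 494 and 1086, and Agpat2 2.22-fold with 4769 and 10582. Cept1 was 3.12-fold higher, but its chow arrays differed by 1.95. Among 22 lipoprotein genes Apoa4 and Apoc2, the cofactor of lipoprotein lipase, were at least 2-fold higher, the latter with 10389 and 29955, and Apom, a carrier in high-density lipoprotein, was 2.13-fold lower with 5921 and 2778.

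Oxidation genes differed little as groups, with medians of 0.15 for both the mitochondrial and the peroxisomal list of 23 members each. Ppargc1b, a coactivator of oxidative metabolism and of SREBP1, was the mitochondrial member with a 2-fold difference and was 6.30-fold lower, with 1468 on chow and 233 on fast food at 2 months and 1989 and 226 at 5 months. Abcd2, a peroxisomal transporter, was 3.53-fold higher with 363 and 1279, and Vnn1, a pantetheinase, 2.69-fold higher with 2550 and 6872. Each was 2-fold higher on 1 of 2 probe sets, and averaged over all probe sets, those at the floor included, the log2 differences were 0.50 and 0.91. In insulin signalling and gluconeogenesis 1 of 18 was at least 2-fold higher, the glycogen-targeting subunit gene Ppp1r3b with 1456 and 3764, and its chow arrays differed by 1.08.

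**Figure D4:**
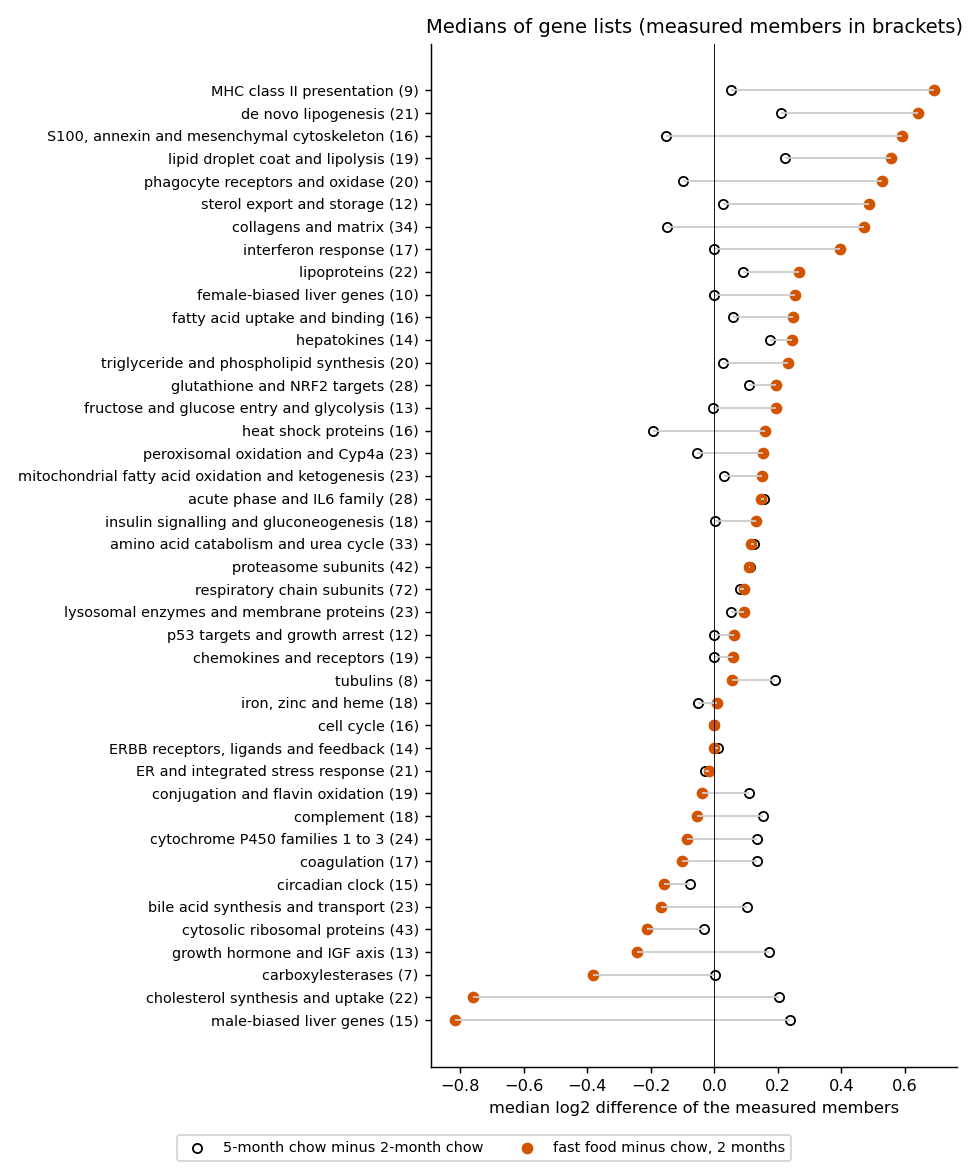
Median log2 difference of the measured members of each of 42 lists of processes, with the number of members in brackets, for fast food over chow at 2 months (orange) and 5-month over 2-month chow (open circles); medians carry no error. The MHC class II list lies highest at 0.69, and the cholesterol and male-biased lists lie lowest at -0.76 and -0.81 where the chow pair has 0.20 and 0.24.

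Among male-biased liver genes 5 of 15 measured members were at least 2-fold lower and none as far higher, with a median of -0.81 beside 0.24 between the chow arrays and -1.81 at 5 months. Hsd3b5, a steroid-metabolising enzyme of male liver, had 9458 on chow and 897 on fast food at 2 months. At 5 months it had 11754 on chow and was below the floor on fast food. It was 10.5-fold lower at 2 months, the furthest below chow of the genes above the floor on both arrays. Ugt2b38, a glucuronosyltransferase, was at least 5.62-fold lower, and Susd4, a complement regulator, at least 3.46-fold lower, with both of its probe sets at least 2-fold lower. Mup3, a urinary pheromone carrier, and Cyp2d9 had log2 differences of -0.31 and -0.88, and Elovl3 had 0.18. Not every male-biased gene was therefore lower.

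Among 10 measured female-biased genes 2 lay at least 2-fold above chow and none as far below, with a median of 0.25. Cyp2b9, a cytochrome P450 of female liver, had 350 on chow and 1343 on fast food, 3.84-fold, beside 488 and 1087 at 5 months. Cyp17a1 had 650 and 1635. In the growth hormone and IGF list the median was -0.24 and 1 of 13 members was at least 2-fold lower, Socs2, a feedback inhibitor induced by growth hormone, with 821 and 278 on 1 of 3 measured probe sets; averaged over all its probe sets the log2 difference was -0.42. Lifr, a receptor subunit for cytokines of the IL6 family, was 3.63-fold lower with 8598 and 2366, on 2 of 3 probe sets. Egfr, the epidermal growth factor receptor, had 7035 and 2626, 2.68-fold lower, on 3 of 6 probe sets, with 8635 and 1683 at 5 months; averaged over all its probe sets the 2-month log2 difference was -0.76. It was the 1 of 14 ERBB receptors, ligands and feedback genes that differed at least 2-fold, and the median of that list was 0.

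Among drug-metabolising genes, the list of cytochrome P450 genes of families 1 to 3, which also holds the receptor genes Nr1i2, Nr1i3 and Ahr but not the sex-biased Cyp2b9, had none of 24 members at least 2-fold different and a median of -0.09. Ces2a, a carboxylesterase, was 3.70-fold lower with 9445 on chow and 2550 on fast food and 9147 and 2287 at 5 months, and was the 1 of 7 carboxylesterases past 2-fold. The carboxylesterases had a median of -0.38 beside 0.00 between the chow arrays and -0.64 at 5 months, and 6 of the 7 were lower by any amount. Fmo5, a flavin monooxygenase, was 2.75-fold higher, with 10942 and 30123, and all 3 of its probe sets were at least 2-fold higher. In the glutathione and NRF2 list, 2 of 28 were at least 2-fold higher, the glutathione transferases Gstm2 and Gstm3 at 3.78-fold and 2.90-fold. Another 2 were lower, Osgin1, an oxidative stress growth inhibitor, at 4.20-fold and Gstt2 at 2.27-fold.

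Among macrophage genes the 2-fold differences were mostly upward. Of 12 measured Kupffer cell markers 6 were at least 2-fold higher, 4 of them at least 2-fold above both chow arrays, and none was at least 2-fold lower, with a median of 0.99 beside -0.05 between the chow arrays and 0.74 at 5 months. C1qa, a subunit of the first complement component made by macrophages, had 878 on chow and 3925 on fast food, beside 918 and 5179 at 5 months. It was 4.47-fold higher, and C1qb and C1qc were 2.99-fold and 2.32-fold higher. C1qb was 2-fold higher on 1 of 3 probe sets and had a log2 difference of 0.66 averaged over all of its probe sets. Cd5l, a secreted protein of tissue macrophages, had 1897 and 6572. Markers narrower to Kupffer cells differed less, with log2 differences of 0.97 for Clec4f, 0.50 for Vsig4 and 0.24 for Timd4, and Cd163 was lower, with 283 on chow and the floor on fast food. In bulk liver RNA more cells of a type and more RNA per cell cannot be told apart.

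Sirpa, an inhibitory receptor of phagocytes that binds CD47, was 5.31-fold higher with 390 and 2071, on 1 of 3 probe sets, all 3 of which were higher. In the list of phagocyte receptors and oxidase subunits 3 of 20 were at least 2-fold higher, 1 of them at least 2-fold above both chow arrays. The median was 0.53 beside -0.10 between the chow arrays and 0.84 at 5 months. Besides Sirpa the 2-fold members were Fcer1g and Cyba, both at the floor on the 2-month chow array but with differences of 1.61 and 1.04 between the chow arrays. In MHC class II presentation 3 of 9 were at least 2-fold higher, 1 of them at least 2-fold above both chow arrays. The median was 0.69 beside 0.05 between the chow arrays and 1.31 at 5 months. The invariant chain gene Cd74 had 1516 and 3243, beside 1617 and 8659 at 5 months, and H2-Aa had 1752 and 3935. Of the lipid-associated macrophage list 3 of 12 were at least 2-fold higher, Lgals3, Lyz2 and Clec7a, at 2.95-fold, 2.22-fold and 2.14-fold, and 1 was lower, Fabp5, and Gpnmb was at the floor on both arrays. The neutrophil list had a median of 0.01 and 2 of 8 members at least 2-fold higher, Elane at 2.51-fold and Csf3r at 2.04-fold. Neither was at least 2-fold above both chow arrays, and their log2 differences at 5 months were 0.06 and 0.57. Of the other members S100a8 and S100a9 were at the floor on both arrays, and Ngp, Cxcr2, Mpo and Ltf ranged from -0.20 to 0.18. The T and NK cell list had a median of 0.13 and 1 of 8, Cd3e at 2.22-fold, whose chow signal of 251 lay near the floor. By any amount 4 members of that list were higher and 3 lower. The B cell list had a median of -0.07 and none of 6 at least 2-fold higher.

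The summed signal of the Kupffer cell markers was 13662 and 14380 on the 2-month and 5-month chow arrays and 31894 and 38782 on the fast-food arrays. That of the lipid-associated macrophage list was 11185 and 11169 on chow and 12619 and 24694 on fast food. Fabp5, with 4967 and 1275 at 2 months, lowers the 2-month fast-food sum, and 9 of the 12 members were higher by any amount. The hepatocyte list, which checks the tissue label, summed to 266864 on chow and 292196 on fast food at 2 months, and none of its 12 members was 2-fold different. Its median was -0.09 with 7 members lower, and the members ranged from Foxa3, a transcription factor gene, at -0.82 to Alb at 0.44. The part that cell composition plays in the macrophage differences was not tested.

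**Figure D5:**
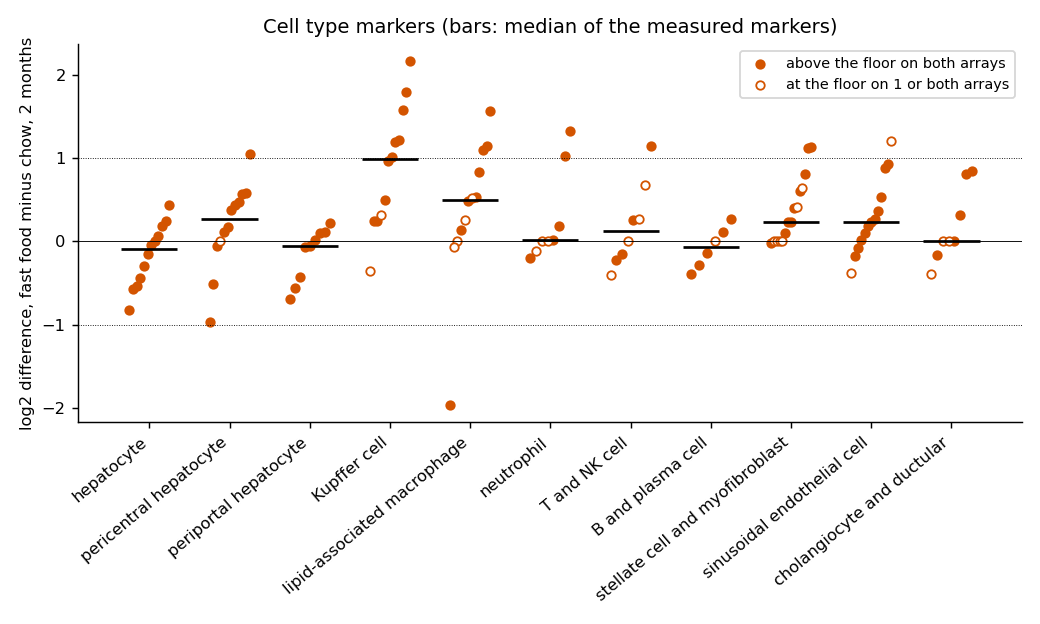
Log2 difference between fast food and chow at 2 months for the measured markers of 11 cell types, 1 circle per gene, open where the gene was at the floor on 1 or both arrays, with a bar at the median and dotted lines at 2-fold. Kupffer cell markers have the highest median at 0.99, hepatocyte markers lie within 2-fold, and the lowest point is Fabp5 at -1.96 in the lipid-associated macrophage list.

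In the lists of matrix and of the mesenchymal cytoskeleton the 2-fold differences were all upward. The collagen gene Col12a1, which is not in the matrix list, was lower, with a log2 difference of -2.02 and a fast-food signal just above the floor. In the matrix list 5 of 34 members were at least 2-fold above chow and none as far below, with a median of 0.47 beside -0.15 between the chow arrays and 0.69 at 5 months. Of the 5, 3 were at least 2-fold above both chow arrays. Col3a1, a fibrillar collagen, had 863 on chow and 3035 on fast food, beside 590 and 4072 at 5 months, and was 2-fold higher on 1 of 2 probe sets. Col1a1 was at the floor on both chow arrays, and its signal of 767 on fast food makes it at least 3.47-fold higher. This held for 1 of 2 measured probe sets of Col1a1, and the other had a log2 difference of 0.49. Col1a1 stayed past 2-fold in each alternative run for it. Sparc, a collagen-binding glycoprotein, had 1236 and 3102 on 1 of 3 probe sets. Tgfb1, the fibrogenic cytokine, had a log2 difference of -0.42 and the gelatinase gene Mmp9 one of -0.14. The S100, annexin and cytoskeleton list had 6 of 16 at least 2-fold higher, all 6 of them at least 2-fold above both chow arrays, and a median of 0.59 beside -0.15 between the chow arrays. S100a10 and its partner Anxa2, which form a membrane-bound complex, were 4.05-fold and 2.74-fold higher, with 1840 and 7450 and with 1614 and 4423. Anxa5 had 1871 and 6170, and the galectin gene Lgals1 had 1318 and 4417, with both probe sets at least 2-fold higher. Anxa2 was 2-fold higher on 1 of 2 measured probe sets, and averaged over all its probe sets its log2 difference was 0.55 and that of Sparc 0.72.

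Markers of the cells that make matrix are given beside these lists. Of 15 stellate cell and myofibroblast markers 2 were at least 2-fold higher, Acta2, the smooth muscle actin of myofibroblasts, with 1359 and 2983, and Rgs5, a pericyte gene, with 1044 and 2269 on 1 of 4 probe sets. At 5 months Acta2 had 1131 on chow and 1367 on fast food, a log2 difference of 0.27. Averaged over all its probe sets, those at the floor included, Acta2 had a 2-month log2 difference of 0.38. The median of the 15 markers was 0.24, 4 of them, among these Pdgfrb, were at the floor on both arrays, and the summed signal was 17903 and 15520 on the chow arrays and 26917 and 33847 on the fast-food arrays. Dcn, with 5899 on chow and 10336 on fast food at 2 months, contributes a large part of these sums. Its 2 measured probe sets had log2 differences of 0.81 and -0.09. Of 13 sinusoidal endothelial markers 1 was at least 2-fold higher, Wnt2, at least 2.30-fold, and the summed signal was 12935 and 11389 on chow and 15361 and 13856 on fast food. The part of these cells in the matrix values was not tested.

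Some acute phase genes differed more between the chow arrays than with diet at 2 months. Saa1, a serum amyloid made by hepatocytes in inflammation, had 1278 on chow and 9674 on fast food at 2 months, which is 7.57-fold higher, but 13263 on chow and 13376 on fast food at 5 months. Saa2 had 283 and 1451, and 1588 and 1836 at 5 months. The 2-month chow array was the low one of the 4 for both genes. With 1 array per group, an unusual array and a difference of age or study cannot be told apart, and the cause was not tested. In the acute phase and IL6 family list 6 of 28 members were 2-fold or more above chow and 1 below, but 5 of the list were 2-fold or more higher on the 5-month chow array, and the medians were 0.15 and 0.16. Orm3, an orosomucoid, differed in this respect, with 341 and 1121 at 2 months and a difference of -0.62 between the chow arrays. Among cytokines Il1b had a log2 difference of 0.49. Chemokine genes had a median of 0.06, and 2 of 19 were at least 2-fold higher, Cxcl9 and Ccl6, both at the floor on the 2 chow arrays and at least 3.49-fold and 2.04-fold higher.

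The interferon response list had no member past 2-fold, although 16 of 17 were higher by any amount, with a median of 0.39 beside 0 between the chow arrays and 0.18 at 5 months. The heat shock list and the list of the endoplasmic reticulum and integrated stress response had no member past 2-fold either, with medians of 0.16 and -0.02. In the lysosomal list the median was 0.09. Lgmn, a cysteine protease, had 961 and 2104, Atp6v1b2, a proton pump subunit, was at least 3.59-fold higher but differed by 1.65 between the chow arrays, and Ctsf, a cathepsin, was at least 3.60-fold lower on 1 of 2 probe sets.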

How the data were processed

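The deposited intensity values are MAS5 signals on a linear scale from the authors' analysis of Affymetrix Mouse Genome 430 2.0 arrays, per the submitters' processing notes; a MAS5 version was not given in the sources used here. Every array had been scaled to a mean of 500 after trimming 2% of probe sets at either end, as its values show. Of 45101 probe sets, 34958 had 1 gene symbol in the platform annotation, 932 several and 9211 none, and 64 were controls. A gene took the probe set with 1 symbol and the highest mean over the 6 arrays, and a gene's other probe sets were counted as measured where above the floor. Signals under the 50th percentile of the whole table, 221.4, were set to it as a floor before log2 was taken. Levels are not compared between genes. Arrays have no read depth, and their number limits the precision.

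Differences of 1 array against 1 array carry no test. The members and the 56 gene lists (42 of processes, 14 of cell types) were chosen with earlier results of these data known. Named were the 15 genes furthest above and below chow among genes above the floor on both arrays, the 5 largest bounds each way, up to 4 members of each list with the largest difference, and a fixed set of genes of known role. Others are said to be outside this rule or are given as neighbours in a pathway or list. Members of the lists without a value were not analysed here. Scripts were tested on simulated data. Alternatives covered scaling, floor, probe sets, reference array and threshold. Promoters came from RefSeq on GRCm38.p6. Python 3.11.15, NumPy 2.4.6, SciPy 1.17.1, pandas 2.3.3, statsmodels 0.14.6 and matplotlib 3.10.9 were used.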

Additional observations from a re-analysis of the deposited data

Results flagged for a closer look

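For 3 named genes the difference between fast food and chow had opposite signs in the 2-month and the 5-month study, with at least 2-fold at 2 months and at least 1.5-fold at 5 months; the difference between the times was not tested. St3gal6 had a log2 difference of 3.90 at 2 months and -4.12 at 5 months. Smpd2 had -2.15 at 2 months, a bound, and 1.65 at 5 months. Ctsf had -1.85 at 2 months, a bound, and 0.74 at 5 months.

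The comparisons by gene do not use the probe sets without a gene symbol in the annotation. Of 4404 of these above the floor on at least 1 array, 2.97% were at least 2-fold different with diet at 2 months, 48 higher and 83 lower, beside 2.50% (110) between the chow arrays.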

How the results depend on the processing

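No paired analysis was possible because each group had 1 array and no replicate number is shared. Leaving out a replicate was not possible for the same reason. The numbers of higher genes, lower genes, genes away from both chow arrays, genes different between the chow arrays and genes shared with the 5-month comparison were 277, 217, 237, 364 and 145. With the floor at the 40th percentile the first 4 were 451, 441, 393 and 670, and at the 60th percentile there were 126 lower genes and 184 between the chow arrays. Without a floor the 5 numbers were 706, 743, 709, 1190 and 343. With genes above the floor on all arrays compared the first 4 were 184, 140, 147 and 223. With probe sets averaged per gene they were 162, 120, 137, 185 and 95, at 1.5-fold 1049, 981, 939, 1711 and 521, and at 3-fold 64, 36, 52, 44 and 39. Quantile, median and loess scaling, genes without the probe sets ending in _s_at, _x_at and _a_at, the mean of both chow arrays as reference, and genes that differ between the chow arrays left out kept the counts run within 1.5 times; the last 2 were not run for the genes away from both chow arrays or different between them, nor the chow mean for the shared count. Without _s_at, _x_at and _a_at probe sets St3gal6 had -0.13, Nup62 0.53 and Ctsf 0.39, the 3 reversed of 2550 values of named genes; the cause was not tested. Of 602 list medians none was reversed and 503 stayed within the spread of the chow pair. Of 115 named genes past 2-fold, 59 stayed past it in each alternative run for them. Under the mean over probe sets, Sirpa had 0.99 and Lifr -0.98.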

Other observations

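Amino acid metabolism had a median log2 difference of 0.12 over 33 measured genes, and 2 of them were at least 2-fold lower. Csad, which makes hypotaurine for taurine synthesis, had 11219 on chow and 4718 on fast food, and Agxt, which converts glyoxylate to glycine, had 7907 and 3468. Among 14 hepatokines Lect2 had 2934 and 6079 at 2 months, but 3029 and 3055 at 5 months, so only the 2-month fast-food array was high. Fgf21, a fasting and stress hormone, was at least 2.01-fold higher, with a difference of 1.32 between the chow arrays. In the complement list C8b, a subunit of the membrane attack complex, was 2.98-fold lower with 6590 and 2210, beside 7417 and 937 at 5 months. Cfp, properdin, was 3.01-fold higher with 295 and 888 on 1 of 2 probe sets, and its log2 difference was 0.20 averaged over all its probe sets. The other measured probe set of Cfp went the other way, with a log2 difference of -1.20. Coagulation genes had a median of -0.10 with none of 17 past 2-fold.

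Tfrc, the transferrin receptor, was 2.20-fold higher with 648 and 1425, the 1 of 18 iron, zinc and heme genes past 2-fold. It was 2-fold higher on 1 of 2 measured probe sets, and the average over all its probe sets gave a log2 difference of 0.47. Of 43 cytosolic ribosomal protein genes 34 were lower by any amount, with a median of -0.21, and none was past 2-fold. Of 15 clock genes 11 were lower and 2 higher by any amount, with a median of -0.16 and none past 2-fold; Dbp had -0.81. The 72 respiratory chain and 42 proteasome subunit genes had medians of 0.09 and 0.11, and each list had 1 member at least 2-fold lower. Cell cycle genes had a median of 0, with Tk1, thymidine kinase, 2.23-fold lower and Ccna2, cyclin A2, at least 2.69-fold higher but also higher by 1.44 on the 5-month chow array. In the p53 list Phlda3 and Btg2 were 2.10-fold and 2.08-fold higher of 12. Neither was at least 2-fold above both chow arrays, and both fell below 2-fold against the mean of the chow arrays. Btg2 was 2-fold higher on 1 of 2 probe sets, and the other had a log2 difference of 0.18. At 5 months Phlda3 and Btg2 had log2 differences of 0.89 and 1.09.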
